A study of Mus musculus with 6 samples.

Results

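Dividing mesenchymal cells were examined in tendons 7 days after transection. They were taken from the Gli1+ and the Gli1- library of 7 dpi (days post injury) as the barcodes with at least 1000 unique molecular identifiers (UMIs), at least 200 genes, at most 5% mitochondrial UMIs, at least 1 UMI of Pdgfra, none of Ptprc, none of Cdh5 and at least 4 UMIs of Mki67, Top2a, Cdk1 and Birc5 together. This gave 1208 cycling mesenchymal cells, 679 in the Gli1+ and 529 in the Gli1- library, of 84194 barcodes in all 6 libraries, of which 63329 passed the depth, gene and mitochondrial filters. The members were therefore chosen by measured values, and the levels of these 4 genes, of Pdgfra, of Ptprc and of Cdh5 are descriptions of that choice.

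The study addressed which cells contribute to heterotopic ossification, the growth of bone inside an injured tendon. Gli1-CreERT2; Ai9 mice, in which tamoxifen switches on a permanent red reporter in cells that express Gli1, either were left uninjured or had the Achilles tendon cut and were examined at 7 or 21 dpi, with 8 mice of both sexes in equal number at each time point per the labels. Reporter-positive (Gli1+) and reporter-negative (Gli1-) cells were separated by FACS, and each of the 6 fractions was sequenced as 1 Chromium 3' library with no label that ties a cell to a mouse. A red cell thus either expressed Gli1 when tamoxifen was given or descends from such a cell, and need not express it at sampling, and every group, uninjured tendons included, carried the same driver, reporter and tamoxifen. With 1 library per condition there was no test between conditions. All intervals below are 95% intervals that cover counting error only. They are narrower for abundant genes, so counts of genes with an interval above or below 0 depend on abundance too.

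As background, a dividing cell copies its DNA in S phase, with the replication helicase, the nucleotide enzymes and new histones, and then builds the spindle and divides in G2 and M phase. Mki67 and Top2a act on mitotic and replicating chromatin, Cdk1 is the kinase that drives entry into mitosis, and Birc5 (survivin) is a subunit of the chromosomal passenger complex. In a cut tendon, fibroblasts of the sheath and surrounding tissue divide in the first week and lay down the provisional matrix in which cartilage and bone can later form.

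Cycling cells made up 13% (12.1 to 13.9) of the 5221 mesenchymal-gated Gli1+ cells and 8.08% (7.43 to 8.76) of the 6550 mesenchymal-gated Gli1- cells at 7 dpi. In uninjured tendons the same gate held 5 of 1598 Gli1+ cells (0.313%) and 7 of 4657 Gli1- cells (0.150%). At 21 dpi it held 153 of 5805 Gli1+ cells (2.64%) and 120 of 5626 Gli1- cells (2.13%). The share at 7 dpi was thus the highest of the 3 time points in both fractions, and was higher in the Gli1+ than in the Gli1- library. A gate in UMIs favours deep cells, and cycling cells were deeper than their libraries, with medians of 18085 (Gli1+) and 19992 (Gli1-) UMIs against 11028 and 12252 over all gated cells. After each cell was thinned to 5000 UMIs and the whole rule, gates included, was applied again, the shares were 5.73% of 3124 Gli1+ and 3.47% of 4270 Gli1- cells at 7 dpi. They were 0.0822% and 0.127% in uninjured tendons and 0.876% and 1.17% at 21 dpi, so the order of the time points was kept at equal depth.

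**Figure D1:**
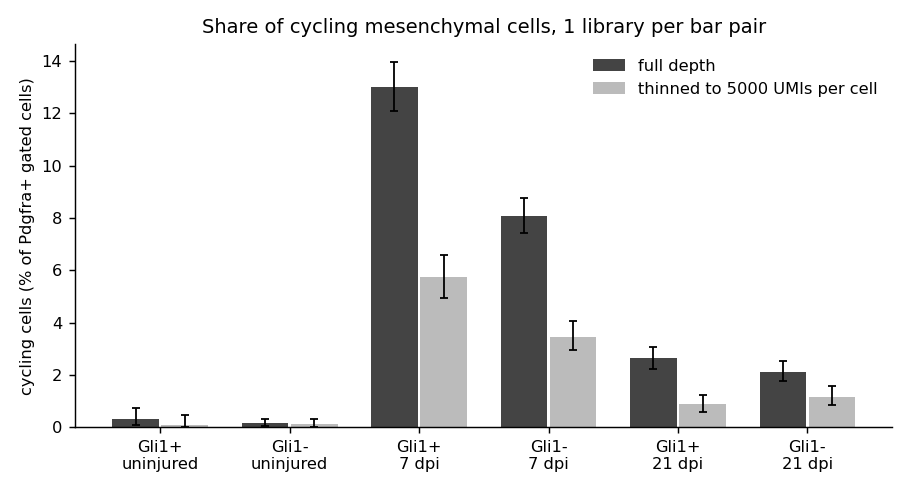
Share of mesenchymal-gated cells (percent) that met the cycling rule in each of the 6 libraries, before and after thinning to 5000 UMIs, with exact binomial 95% intervals as bars. Both 7 dpi libraries stand above the uninjured and 21 dpi libraries, with 13% of Gli1+ and 8.08% of Gli1- cells before thinning.

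Within the members the 4 genes of the rule were spread over most cells. Birc5 was read in 93.4% of Gli1+ and 94.9% of Gli1- members, Mki67 in 84.8% and 83.7%, Top2a in 75.1% and 63.9%, and Cdk1 in 68.9% and 65.8%. All 4 genes were read in 342 Gli1+ members (50.4%) and 233 Gli1- members (44.0%), and only 26 and 25 members met the rule through a single gene. The summed count of the 4 genes had a median of 11 in Gli1+ and 12 in Gli1- members and reached 79 and 81. At the edge of the rule, 77 Gli1+ and 67 Gli1- members held exactly 4 UMIs, and 121 and 103 cells just outside it held 3. Cenpf, a kinetochore protein that the rule did not use, stood at 24.3 UMIs per 1000000 (CPM) in the Gli1+ members with 4 UMIs and at 23 CPM in the cells with 3, and at 22.6 and 19.6 CPM in the Gli1- library. Pclaf, a PCNA-binding factor, stood at 54.2 CPM with 4 and 34.5 CPM with 3 UMIs in Gli1+ cells, and at 33.5 and 29.2 CPM in the Gli1- library. Crabp1 stood at 237 CPM with 4 and 385 CPM with 3 UMIs in the Gli1+ library, and at 146 and 82.7 CPM in the Gli1- library.

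The cells of the Gli1+ library carried epidermal transcripts, which bear on all of its values. Krt5 or Krt14 was read in 100% of Gli1+ members and in 100% of the 82 endothelial-gated cells of that library (at least 2 UMIs of Cdh5, none of Pdgfra or Ptprc), but in 26.5% of Gli1- members and 9.52% of 641 endothelial-gated Gli1- cells. When all gated cells of both 7 dpi libraries were clustered together without cell-cycle genes, 153 Gli1+ and 3 Gli1- members fell into cluster 9, which had Dsg3, Epcam and Krt5 among its 10 leading genes and Krt14 at 9033 CPM. Counts of genes and the levels of Crabp1 are therefore given without this cluster too. The share of cycling cells without cluster 9 was 11.2% in the Gli1+ library. The 2 sets of members shared no barcode. Y-linked UMIs were found in 87.8% of Gli1+ and 91.7% of Gli1- members and Xist UMIs in 0% and 0.189%, although the labels state equal numbers of both sexes.

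To compare cells of the same depth, members were paired where possible with a cell of their own library within 10% of their total UMIs. That cell held Pdgfra, no Cdh5 and none of the 4 genes (Ptprc was not used here). In the Gli1+ library 591 of 679 members were paired, out of 2984 possible comparison cells (median 16449 against 16442 UMIs). In the Gli1- library 490 of 529 were, out of 4379 (19007.5 against 19016 UMIs). The deepest members had no pair: members reached 63503 (Gli1+) and 66853 UMIs (Gli1-), and paired members 45289 and 51003. Values of cycling beside matched cells are those of paired members. Col3a1, a fibrillar collagen of fibroblasts, stood at 8791 CPM in Gli1+ and 11747 CPM in Gli1- paired members. Being read in every paired member is no check of the label, since stromal transcripts were read in other cells too, the cause of which was not tested. Postn, for one, was read in 96.3% of endothelial-gated Gli1+ and 84.4% of endothelial-gated Gli1- cells. The marker lists of other cell types were compared as sums over each list. The 16 immune markers in the files summed to 86.8 CPM in cycling and 139 CPM in matched Gli1+ cells (41.4 and 41.3 without cluster 9) and to 22.4 and 21.8 CPM in the Gli1- library. The 9 endothelial markers summed to 18.7 and 20.8 CPM (Gli1+) and to 69.0 and 54.0 CPM (Gli1-). The 12 epidermal markers summed to 6391 and 4693 CPM in Gli1+ cells (2048 and 2147 without cluster 9) and to 187 and 154 CPM in Gli1- cells (40.5 and 40.4). The 9 mural markers, those of pericytes and smooth muscle, summed to 64.6 and 79.5 CPM (Gli1+) and to 260 and 155 CPM (Gli1-). The 10 skeletal muscle markers summed to 82.9 and 36.1 CPM in Gli1+ cells, and the same list had a median log2 ratio of -0.58 in that library within clusters. Epidermal and muscle markers were thus higher in cycling cells of the Gli1+ library, the epidermal ones only with cluster 9. In those of the Gli1- library mural and endothelial markers were higher, and so were the 5 red blood cell markers (115 against 40.4 CPM). Of these, Hbb-bt, Hba-a1 and Hba-a2 were no longer higher in cells with Pdgfra of at least 2, where the intervals of their ratios spanned 0. Removing the cells with the highest doublet scores took out 126 of 679 Gli1+ and 84 of 529 Gli1- members. Of all cells past the filters it took out 810 of 10064 (Gli1+) and 950 of 10899 (Gli1-), a smaller part than of the members.

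Most genes of the cell cycle other than the 4 of the rule were higher in the members. Members held at least 4 UMIs of these 4 genes and matched cells none, so genes that move with them were bound to differ. The levels of cell-cycle genes here and below are thus in large part set by the rule. Of the 398 cell-cycle genes compared in both libraries, 296 (74.4%) were at least 2-fold higher in cycling than in matched cells in both, and none was 2-fold lower. Of all 12218 Gli1+ and 11904 Gli1- genes compared, 4.97% and 5.26% were at least 2-fold higher. In the G2/M list, 47 of 50 genes were 2-fold higher in each library, with a median log2 ratio of 4.09 (Gli1+) and 4.63 (Gli1-). Hmmr, a spindle-associated protein, stood at 85.7 CPM in cycling and 1.34 CPM in matched Gli1+ cells, a log2 ratio of 6.0 (5.22 to 6.92). In Gli1- cells it stood at 90.8 and 0.732 CPM, a log2 ratio of 6.96 (5.91 to 8.27). Cenpf was at 128 against 3.50 CPM (Gli1+) and 136 against 1.46 CPM (Gli1-), and Ccnb1 (cyclin B1), the partner of Cdk1, was at 74.5 against 2.36 CPM (Gli1+) and 74.8 against 0.837 CPM (Gli1-). These 3 genes thus stood at 3.50 CPM or less in the matched cells of both libraries.

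The S-phase list had smaller ratios, with 39 of 43 (Gli1+) and 40 of 43 genes (Gli1-) at least 2-fold higher and medians of 2.03 and 2.22. Rad51ap1, which assists homologous recombination, was at 24.5 against 1.44 CPM (Gli1+) and 25.2 against 0.523 CPM (Gli1-) in cycling and matched cells. Uhrf1, which hands DNA methylation on to the new strand, was at 50.4 against 4.83 CPM (Gli1+) and 48.8 against 2.93 CPM (Gli1-). Clspn, a replication-checkpoint adaptor, had log2 ratios of 3.40 (2.97 to 3.86) and 4.10 (3.53 to 4.73). Of the cyclins, CDKs and their transcription factors, 14 of 25 (Gli1+) and 12 of 24 (Gli1-) were at least 2-fold higher, where 4.97% and 5.26% of all genes compared were. The interval of 2 (Gli1+) and 3 genes (Gli1-) of this list lay below 0, as did that of 20.6% and 19.2% of genes outside the cell cycle. The list was led by Ccnb1 and by Ccna2 (cyclin A2), which was at 62.6 against 2.06 CPM (Gli1+) and 58.8 against 1.05 CPM (Gli1-).

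Since these genes moved together, their promoters were read for the short elements known from cell-cycle genes: the box bound by NF-Y (searched as CCAAT), the cell-cycle homology region, a mitotic repressor element (searched as TTTGAA and as the variant TTCGAA), and E2F sites (searched as GGCGGGAA and as the variant TTTGGCGC). The 150 bases before the first listed RefSeq start (GRCm38.p6) were searched on both strands, in the 27025 promoters available. CCAAT was found in 74.4% of the 43 matched promoters of the 50 G2/M genes, in 64.5% of the 31 matched of the 43 S-phase genes and in 25.3% of all promoters. CCAAT together with TTTGAA or TTCGAA was found in 27.9% of the G2/M, 6.45% of the S-phase and 2.52% of all promoters, and GGCGGGAA or TTTGGCGC in 2.33%, 25.8% and 1.65%. Of the 9 matched promoters of the tendon identity list, 22.2% held CCAAT and 22.2% held GGCGGGAA or TTTGGCGC, which is 2 promoters each. On the other strand it reads ATTGG, and matches of different motifs were allowed to share end letters. A match is a run of letters and not evidence of binding. Shown are the promoters of 2 G2/M genes with all elements of that group, of 2 genes with CCAAT pairs only, of 2 S-phase genes and of Crabp1. Of the genes with CCAAT pairs only, Ccnb1 is not in the G2/M list. The sequences run 5′ to 3′ along the strand of the gene, with the matched letters in capitals.
Cdc20 (chr4:118437344-118437493, minus strand): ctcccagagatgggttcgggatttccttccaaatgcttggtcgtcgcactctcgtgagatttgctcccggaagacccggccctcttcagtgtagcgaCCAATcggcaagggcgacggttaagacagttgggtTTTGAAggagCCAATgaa
Ube2c (chr2:164769779-164769928, plus strand): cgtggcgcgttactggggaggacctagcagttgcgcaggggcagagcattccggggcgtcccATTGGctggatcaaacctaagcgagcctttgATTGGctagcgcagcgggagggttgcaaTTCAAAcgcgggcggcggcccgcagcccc
Cenpf (chr1:189688087-189688236, minus strand): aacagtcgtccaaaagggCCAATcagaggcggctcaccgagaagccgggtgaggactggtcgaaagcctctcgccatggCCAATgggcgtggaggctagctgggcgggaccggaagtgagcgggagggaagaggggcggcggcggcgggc
Ccnb1 (chr13:100786487-100786636, minus strand): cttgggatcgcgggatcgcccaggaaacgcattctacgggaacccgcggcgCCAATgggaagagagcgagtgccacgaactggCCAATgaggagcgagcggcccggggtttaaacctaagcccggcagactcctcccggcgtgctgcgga
Uhrf1 (chr17:56303187-56303336, plus strand): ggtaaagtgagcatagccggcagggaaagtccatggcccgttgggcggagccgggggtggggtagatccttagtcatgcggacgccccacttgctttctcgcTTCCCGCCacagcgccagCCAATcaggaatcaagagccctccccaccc
Mcm6 (chr1:128359706-128359855, minus strand): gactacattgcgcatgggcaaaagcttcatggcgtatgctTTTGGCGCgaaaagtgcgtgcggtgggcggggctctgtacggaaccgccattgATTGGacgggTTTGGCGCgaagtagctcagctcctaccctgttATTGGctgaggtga
Crabp1 (chr9:54764598-54764747, plus strand): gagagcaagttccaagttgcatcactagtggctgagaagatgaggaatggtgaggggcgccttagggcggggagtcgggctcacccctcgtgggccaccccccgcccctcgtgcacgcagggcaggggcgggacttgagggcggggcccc

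Cdc20, the activator of the mitotic ubiquitin ligase, and Ube2c, its ubiquitin-conjugating enzyme, each hold 2 CCAAT matches and 1 TTTGAA match, Cenpf and Ccnb1 hold 2 CCAAT matches, Uhrf1 and Mcm6 (a subunit of the replication helicase) hold E2F-type letters beside CCAAT, and the window of Crabp1 holds none of these letters.

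The materials of chromosome copying were higher in the members as well. Of 24 histone genes compared, 20 were at least 2-fold higher in each library (medians 3.03 and 3.38), against 4.97% (Gli1+) and 5.26% (Gli1-) of all genes compared. H1f5, a linker histone, was at 257 against 13 CPM (Gli1+) and 219 against 5.96 CPM (Gli1-) in cycling and matched cells. The histone genes lie in near-identical copies and their transcripts largely lack poly(A) tails, so their counts from a 3' library are uncertain. H2az1, a histone variant made outside S phase too, was at 1593 against 338 CPM (Gli1+) and 1682 against 329 CPM (Gli1-), and its median per cell was 1633 against 284 CPM (Gli1+) and 1728 against 242 CPM (Gli1-). Stmn1, a microtubule-destabilising protein, was at 533 against 56.5 CPM (Gli1+) and 441 against 34.5 CPM (Gli1-). It was read in 566 of 591 cycling and 312 of 591 matched Gli1+ cells, as well as 478 and 207 of the 490 Gli1- pairs. In the nucleotide and one-carbon list, 9 (Gli1+) and 8 (Gli1-) of 22 genes were at least 2-fold higher. Tk1 (thymidine kinase) was at 73.3 and 5.04 CPM and at 92.6 and 2.51 CPM in the cycling and matched cells of the 2 libraries, and Dut, which keeps uracil out of DNA, had log2 ratios of 1.81 (1.68 to 1.94) and 1.64 (1.51 to 1.77). Tubb5, a beta-tubulin, was at 1177 against 487 CPM (Gli1+) and 1235 against 517 CPM (Gli1-).

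Among 16 inhibitors of the cell cycle the list was split. Cdkn3, a phosphatase of CDKs with known mitotic expression, was at 81.0 against 5.96 CPM (Gli1+) and 94.2 against 5.12 CPM (Gli1-) in cycling and matched cells. Cdkn2c and Cdkn2d, inhibitors of the cyclin D kinases that are known to be made in S phase, had log2 ratios of 1.34 and 1.48 (Gli1+) and of 1.62 and 1.67 (Gli1-). Cdkn1c (p57), a growth-restraining and imprinted inhibitor, stood at 72.0 against 204 CPM in Gli1+ cells, a log2 ratio of -1.5 (-1.62 to -1.38). In Gli1- cells it stood at 82.9 against 205 CPM, a log2 ratio of -1.31 (-1.43 to -1.19). Klf4 and Klf2, transcription factors linked to quiescence, were lower too, with Klf4 at 290 against 556 CPM (Gli1+) and 244 against 568 CPM (Gli1-). The interval lay below 0 for 10 of 16 inhibitors in each library, against 20.6% (Gli1+) and 19.2% (Gli1-) of genes outside the cell cycle.

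**Figure D2:**
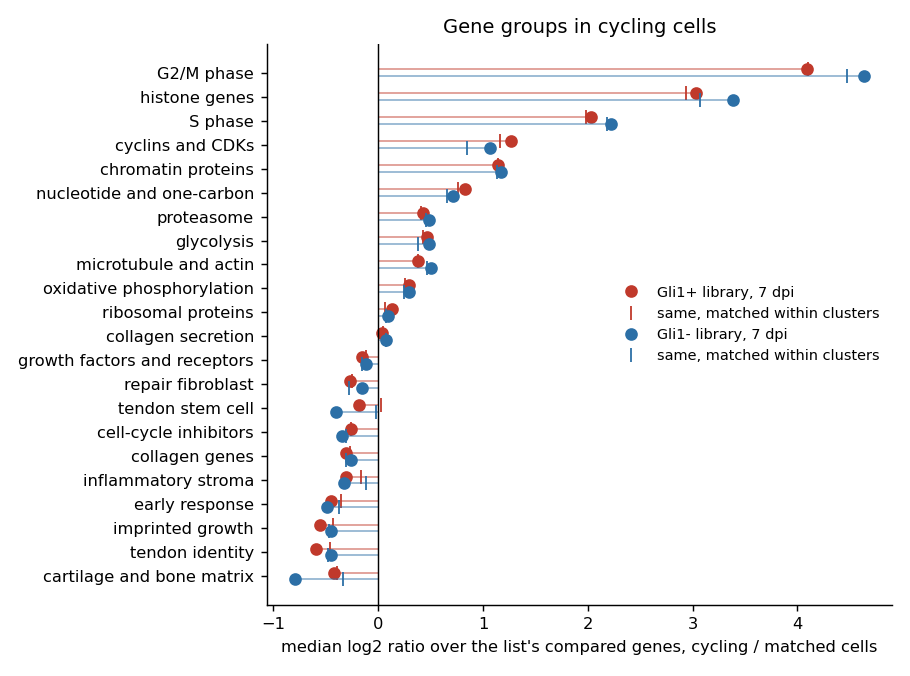
Median log2 ratio of cycling over matched cells for each gene list, in the Gli1+ and the Gli1- library at 7 dpi, with short vertical ticks for pairs drawn within clusters. The mitotic and S-phase lists lie far to the right (medians 4.09 and 2.03 in Gli1+ cells), most metabolic lists slightly above 0, and the tendon identity and cartilage lists below 0 in both libraries.

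Outside the listed cell-cycle genes, the number of genes with a 2-fold difference was small. After 488 cell-cycle genes were left out, 301 of 11815 genes (2.55%) were at least 2-fold higher and 283 (2.40%) at least 2-fold lower in cycling than in matched Gli1+ cells. Without cluster 9 these were 253 (2.27%) and 291 (2.61%) of 11161. In the Gli1- library there were 319 (2.77%) and 291 (2.53%) of 11505. With TMM scaling the split between higher and lower became 263 to 326 in the Gli1+ and 269 to 374 in the Gli1- library. Of 11251 genes compared in both libraries, 157 (1.40%) were 2-fold higher in both and 136 (1.21%) 2-fold lower in both. The genes with the highest ratios included further parts of the division machinery that the list of cell-cycle genes had missed. In all sections, "outside the cell cycle" and "without cell-cycle genes" therefore mean without these 488 listed genes only. The counts of higher genes and the background shares still hold missed division genes, and the clustering could use them. The 12 highest were Knl1, Arhgap19, Prr11, Lrr1, Spag5, Aunip, Hrob, Efcab11, Ticrr, Eldr, Gen1 and 2700099C18Rik. Knl1, the scaffold of the outer kinetochore, was at 57.5 against 1.54 CPM (Gli1+) and 58.9 against 1.57 CPM (Gli1-) in cycling and matched cells. Spag5, a spindle protein, was at 22.1 against 1.44 CPM (Gli1+) and 23.8 against 1.15 CPM (Gli1-).

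The 12 genes with the lowest ratios in both libraries were A230057D06Rik, Pappa2, Chrna7, Gas6, Stk32b, Brinp1, Agtr2, Slfn5, Shisa6, Adamts15, Pdzrn4 and C4b. Gas6, the ligand of the TAM receptor kinases, was by far the most abundant of them. It stood at 118 against 402 CPM in cycling and matched Gli1+ cells, a log2 ratio of -1.77 (-1.86 to -1.67), and at 149 against 497 CPM in Gli1- cells, a log2 ratio of -1.74 (-1.82 to -1.65). Brinp1, for which a role in slowing the cell cycle is known in neurons, was at 20.6 against 68.7 CPM (Gli1+) and 25 against 75.2 CPM (Gli1-). Pappa2, a protease of IGF-binding proteins, was at 2.46 against 9.36 CPM (Gli1+) and 2.94 against 15.9 CPM (Gli1-).

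Crabp1, Acta2 and Spp1 of the repair-fibroblast list were higher in cycling cells of both libraries, although the list as such had medians of -0.27 (Gli1+) and -0.15 (Gli1-). Crabp1, a carrier of retinoic acid and one of the markers these cells had been proposed with, stood at 303 (Gli1+) and 179 CPM (Gli1-) in cycling cells. It stood at 182 and 61.9 CPM in the matched cells. The log2 ratios were 0.73 (0.65 to 0.82) in Gli1+ cells, or 0.84 without cluster 9, and 1.53 (1.39 to 1.67) in Gli1- cells. The transcript was unevenly spread: it was read in 378 of 591 cycling and 324 of 591 matched Gli1+ cells, together with 236 and 133 of the 490 Gli1- pairs. The median level per cell was 79.3 against 51.4 CPM in Gli1+ cells and 0 in both sets of Gli1- cells, whereas the 90th percentile was 856 against 532 CPM and 502 against 84.4 CPM. The tenth of cycling cells with the highest values held 55.6% (Gli1+) and 68.6% (Gli1-) of the Crabp1 UMIs, against 62.5% and 82.1% in the matched cells. At 5000 UMIs per cell it was read in 43.1% of cycling, 33.6% of matched and 16.7% of endothelial-gated Gli1+ cells, and in 28.9%, 11.5% and 2.97% of those of the Gli1- library. The endothelial-gated cells were taken to lack the gene and so to show its background, which was not tested. They had median depths of 5150.5 (Gli1+) and 3616 UMIs (Gli1-) before thinning, when 17.1% and 4.06% of them held a Crabp1 UMI. Only those with at least 5000 UMIs entered the thinned shares, so the Gli1+ share rests on fewer than 82 cells. Crabp1 was thus higher in cycling cells of both fractions, and more of these cells held a UMI of it. Because it was given as a marker with earlier results of these data known, this is a description and no separate support.

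Acta2, the smooth-muscle actin of myofibroblasts, was at 1036 and 613 CPM in cycling and matched Gli1+ cells, a log2 ratio of 0.76 (0.71 to 0.80). In Gli1- cells it was at 1051 and 482 CPM, a log2 ratio of 1.13 (1.08 to 1.18). Its median per cell was 332 against 170 CPM (Gli1+) and 362 against 141 CPM (Gli1-). In the Gli1- library the summed mural markers moved with it (260 against 155 CPM), and their part in the value was not tested. Spp1 (osteopontin), a secreted phosphoprotein of bone and of wound fibroblasts, was at 304 against 191 CPM (Gli1+) and 425 against 165 CPM (Gli1-). These genes did not stand for their list: of 19 repair-fibroblast genes the interval lay above 0 for 6 and below 0 for 12 in Gli1+ cells, and for 7 and 10 in Gli1- cells. Of genes outside the cell cycle 26.5% (Gli1+) and 29.5% (Gli1-) lay above 0 and 20.6% and 19.2% below.

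Other members of the same list had lower values in cycling cells. Postn (periostin) stood at 2282 against 3563 CPM in cycling and matched Gli1+ cells, a log2 ratio of -0.64 (-0.67 to -0.62). The Gli1- pairs stood at 2573 against 3875 CPM, a log2 ratio of -0.59 (-0.61 to -0.57). Col3a1 was at 8791 against 14281 CPM (Gli1+) and 11747 against 18173 CPM (Gli1-), and Sfrp2, a secreted modulator of Wnt signalling, at 197 and 630 CPM and at 309 and 748 CPM. Tnn (tenascin-W) was at 387 against 474 CPM (Gli1+) and 453 against 457 CPM (Gli1-), where the interval of the log2 ratio ran from -0.08 to 0.05. Of all collagen genes compared, the interval lay below 0 for 21 of 37 (Gli1+) and 22 of 35 (Gli1-) and above 0 for 5 in each library, against 20.6% and 19.2% below 0 among genes outside the cell cycle.

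**Figure D3:**
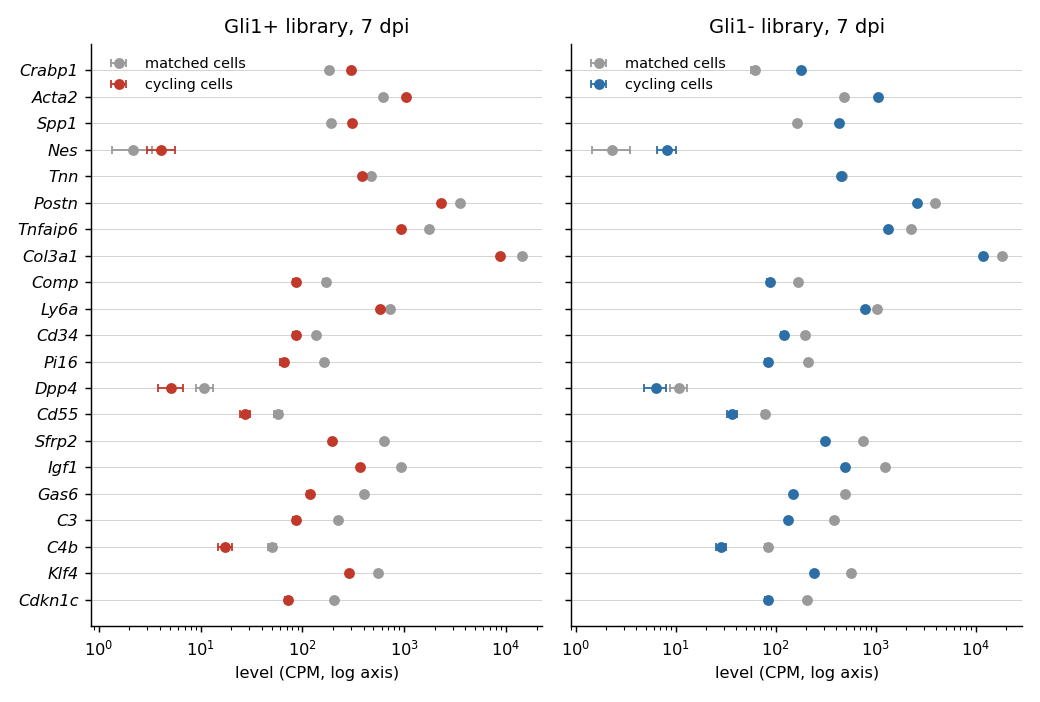
Level (CPM, log axis) of named genes in cycling and in matched cells of each 7 dpi library, with exact Poisson 95% intervals. Crabp1, Acta2 and Spp1 lie higher in the cycling cells of both libraries, and Pi16, Sfrp2, Igf1, Gas6 and C3 lower.

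In the tendon stem cell list the interval lay below 0 for 7 (Gli1+) and 8 (Gli1-) of 13 genes and above 0 for 4 in each library, against 20.6% and 19.2% below 0 and 26.5% and 29.5% above 0 among genes outside the cell cycle. The share above 0 was thus near the background. The median of the list was -0.18 and -0.40, and 0.03 and -0.02 with pairs drawn within clusters. Pi16, a marker of universal fibroblasts of the adventitia and sheath, had the lowest ratio of the named members in both libraries. It stood at 65.6 against 165 CPM in cycling and matched Gli1+ cells, a log2 ratio of -1.33 (-1.46 to -1.20), and at 82.9 against 209 CPM in Gli1- cells, a log2 ratio of -1.34 (-1.46 to -1.22). Cd55, a complement-decay protein of the same fibroblasts, was at 27.4 against 57.9 CPM (Gli1+) and 36.5 against 77.5 CPM (Gli1-). Cd34, a sialomucin of stromal progenitors, was at 87.5 against 136 CPM (Gli1+) and 120 against 197 CPM (Gli1-). Ly6a (Sca-1) was at 574 against 722 CPM (Gli1+) and 771 against 1019 CPM (Gli1-). Tppp3, a marker of tendon sheath progenitors, was at 62.8 and 69.1 CPM (interval of the log2 ratio -0.30 to 0.02) and at 81.2 and 95.6 CPM. Nes (nestin), an intermediate filament of progenitors, was low but higher in the members, at 4.13 against 2.16 CPM (Gli1+) and 8.12 against 2.30 CPM (Gli1-). In the Gli1- library the summed mural (260 against 155 CPM) and endothelial markers (69.0 against 54.0 CPM) moved with it, and their part in its value was not tested.

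When the pairs were drawn within clusters (572 Gli1+ and 475 Gli1- pairs), the log2 ratio of Pi16 was -0.64 and -0.52. That of Cd34 was -0.22 and -0.23, that of Ly6a was 0.01 and -0.02, and that of Tppp3 was 0.26 and 0.18. The number of genes 2-fold lower in both libraries was 69 under this pairing in place of 136. The log2 ratio of Crabp1 was 0.63 (Gli1+) and 1.45 (Gli1-), and that of Sfrp2 was -1.59 and -1.21. The differences of Pi16, Cd34, Ly6a and Tppp3 were therefore smaller or turned within clusters, whereas those of Crabp1 and Sfrp2 were close to those without clusters.

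In the tendon identity list the interval lay below 0 for 14 of 16 (Gli1+) and 11 of 15 genes (Gli1-) and above 0 for 1 in each library, against 20.6% and 19.2% below 0 among genes outside the cell cycle. Comp, a pentameric glycoprotein of loaded tendon and cartilage, stood at 86.3 against 169 CPM (Gli1+) and 86.7 against 166 CPM (Gli1-) in cycling and matched cells. Col1a2, a chain of type I collagen, was at 7260 against 11056 CPM (Gli1+) and 8031 against 12101 CPM (Gli1-). Tnmd (tenomodulin) was at 46.3 against 83.1 CPM (Gli1+) and 67.1 against 83.1 CPM (Gli1-). Scx (scleraxis), the transcription factor of the tendon lineage, differed little, at 50.8 and 58.3 CPM in Gli1+ cells (log2 ratio -0.20, -0.37 to -0.02) and at 50.5 and 49.8 CPM in Gli1- cells (0.02, -0.16 to 0.21). Comp, Col1a2 and Tnmd thus had lower values in cycling cells, and the level of Scx was near that of the matched cells.

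Of the genes of cartilage and bone, Runx2, the transcription factor of the osteogenic lineage, was at 99.4 against 94.6 CPM (Gli1+) and 108 against 104 CPM (Gli1-), with intervals of the log2 ratio from -0.06 to 0.20 and from -0.07 to 0.18. Sox9, that of the cartilage lineage, was at 74.0 against 88.7 CPM (Gli1+) and 75.6 against 95 CPM (Gli1-). Acan (aggrecan) was at 95.8 against 121 CPM (Gli1+) and 129 against 160 CPM (Gli1-). Tnfaip6, a hyaluronan-binding protein, was at 933 against 1770 CPM (Gli1+) and 1317 against 2224 CPM (Gli1-). Col2a1, the collagen of mature cartilage, was at 29.7 and 27.8 CPM in Gli1+ cells. In Gli1- cells it was at 75.8 and 131 CPM, a log2 ratio of -0.79 (-0.93 to -0.66) that became 0.90 within clusters. Clusters with at least 50 gated Gli1- cells had Col2a1 at 8.42 to 19.3 CPM. Cluster 4, whose leading genes began with Col2a1, held 28 gated Gli1- cells, 3 of them members. How far the Gli1- values rest on these few cells was not tested. In the cartilage and bone matrix list the interval lay below 0 for 7 of 12 (Gli1+) and 12 of 15 genes (Gli1-), with 20.6% and 19.2% as the background share, and above 0 for 2 and 0. At least 2-fold lower were 1 of 12 (Gli1+) and 7 of 15 (Gli1-), against 2.40% and 2.53% of genes outside the cell cycle. Within clusters these were 1 of 12 in each library, and the Gli1- median of -0.79 became -0.33.

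In the inflammatory stroma list, lower values in cycling cells outnumbered higher ones. C3, the central complement component, stood at 86.0 against 223 CPM in cycling and matched Gli1+ cells, a log2 ratio of -1.38 (-1.49 to -1.26). Its Gli1- levels were 133 against 382 CPM, a log2 ratio of -1.52 (-1.61 to -1.43). C4b, C1s1, Serping1 and Lbp, which belong to the complement cascade or bind bacterial lipid, were all 2-fold lower in both libraries, with log2 ratios between -1.58 (C4b, Gli1-) and -1.01 (Serping1, Gli1-). Of 21 genes of the inflammatory stroma the interval lay below 0 for 15 in each library and above 0 for 3 (Gli1+) and 4 (Gli1-), where 20.6% and 19.2% of genes outside the cell cycle lay below 0. At least 2-fold lower were 5 (Gli1+) and 6 (Gli1-) of them, against 2.40% and 2.53% of those genes. Within clusters, 1 of these genes in each library was 2-fold lower.

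Igf1, a growth factor made by fibroblasts, stood at 366 against 942 CPM in Gli1+ and 489 against 1233 CPM in Gli1- cells (log2 ratios -1.36 and -1.34, and -1.24 and -1.30 within clusters). Pdgfc, a ligand of Pdgfra, was higher, at 93.5 against 61.2 CPM (Gli1+) and 94.3 against 59.2 CPM (Gli1-). Ptn and Mdk, a pair of heparin-binding growth factors, had log2 ratios of -0.65 and -0.71 in Gli1+ and of -0.45 and -0.60 in Gli1- cells. Growth-factor transcripts thus ran in both directions, and the list of 21 had medians of -0.16 and -0.12.

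Gnas, the Gs-alpha subunit at the centre of the study, was at 1006 and 1516 CPM in cycling and matched Gli1+ cells, a log2 ratio of -0.59 (-0.63 to -0.56). In Gli1- cells it was at 1005 and 1647 CPM, a log2 ratio of -0.71 (-0.75 to -0.68). H19, an imprinted noncoding RNA, was at 226 against 393 CPM (Gli1+) and 347 against 551 CPM (Gli1-). Dlk1 was low in all sets (6.88 to 13.1 CPM), and the interval of its ratio spanned 0 in both libraries. In the imprinted list the interval lay below 0 for 11 of 14 (Gli1+) and 9 of 13 genes (Gli1-), against 20.6% (Gli1+) and 19.2% (Gli1-) of genes outside the cell cycle, and above 0 for none.

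Immediate-early and stress genes, which also respond to the dissociation of tissue, were lower without exception. The interval lay below 0 for 17 of 17 in both libraries, against 20.6% (Gli1+) and 19.2% (Gli1-) of genes outside the cell cycle, with medians of -0.45 and -0.49. These genes were abundant, summing to 12434 CPM in cycling Gli1+ cells, which narrows their intervals. Fosb was at 978 and 1394 CPM in cycling and matched Gli1+ cells, and Atf3 at 612 against 874 CPM (Gli1+) and 493 against 928 CPM (Gli1-). Enzymes of glycolysis were moderately higher, with the interval above 0 for 11 of 15 in each library, against 26.5% (Gli1+) and 29.5% (Gli1-) of genes outside the cell cycle. Pkm was at 870 against 599 CPM (Gli1+) and 905 against 581 CPM (Gli1-), and Slc16a3, an exporter of lactate, had log2 ratios of 0.68 (0.48 to 0.89) and 0.71 (0.50 to 0.92).

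Most members came from few clusters, which also held many of the gated cells. Clusters 0, 2 and 9 were nearly all Gli1+ cells and clusters 3, 6, 7 and 8 nearly all Gli1- cells, so a cluster may be a library and not a type, and all are given by number. The 10 leading genes included Tnnc2, Acta1, Col7a1, Igfbp2 and Crabp1 for cluster 0, Klk1, Pgr and Pi16 for cluster 2, Ibsp, Npy and Kcnk10 for cluster 3, and Cxcl13, Hcn4 and Ccl19 for cluster 7. In the Gli1+ library, cluster 0 held 68.5% of the members and 51.1% of all gated cells. Of its cells 17.4% (465 of 2669) were cycling, against 13% over the library and 2.67% (41 of 1536) of cluster 2. In the Gli1- library, cluster 3 held 81.7% of the members and 43.6% of all gated cells. Of its cells 15.1% (432 of 2853) were cycling, against 8.08% over the library, 2.85% (48 of 1685) of cluster 7 and 0.878% (12 of 1366) of cluster 6. Clusters 0 and 3 had Tnn at 513 and 509 CPM, Acta2 at 808 and 661 CPM and Pi16 at 77.4 and 62.9 CPM, whereas clusters 2 and 7 had Acta2 at 131 and 125 CPM and Pi16 at 681 and 584 CPM. Over the clusters with Pi16 above the level of its library the share was 2.67% in Gli1+ and 1.90% (64 of 3360) in Gli1- cells. Over those below it the share was 17.9% (625 of 3493) and 14.7% (459 of 3123), with cluster 9 included in the Gli1+ value. A low level of Pi16 did not go with a high share in every cluster. Cluster 1, below the level in both libraries, had 3.95% (Gli1+) and 2.70% (Gli1-) cycling. In the Gli1+ library cluster 6 was below the level too, and none of its 111 cells were cycling. These cells were shallow, with a median of 3188 UMIs against 13350 in cluster 0, so the gate could miss cycling cells there.

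Smaller clusters also held members. Cluster 1, whose 10 leading genes began with the bone gene Bglap and held the tendon genes Chad, Cilp2, Kera and Fmod, had 7 of 177 Gli1+ cells (3.95%) and 2 of 74 Gli1- cells (2.70%) cycling. Cluster 11, with the mural genes Rgs5, Higd1b, Myh11 and Notch3 among its 10 leading genes, had 22 of 142 Gli1- cells (15.5%) cycling. Cluster 9, with its epidermal transcripts, had the highest share among clusters with at least 50 gated cells of a library, 28.5% (153 of 536) of its Gli1+ cells. At 5000 UMIs per cell and a threshold of 2 UMIs of the 4 genes the shares were 16.5% in cluster 0, 5.0% in cluster 2, 12.3% in cluster 3, 3.41% in cluster 7 and 24.1% in cluster 9, and 20 of 100 Gli1- cells of cluster 11, so that the order of clusters 0 and 2 and of clusters 3 and 7 was kept at equal depth.

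**Figure D4:**
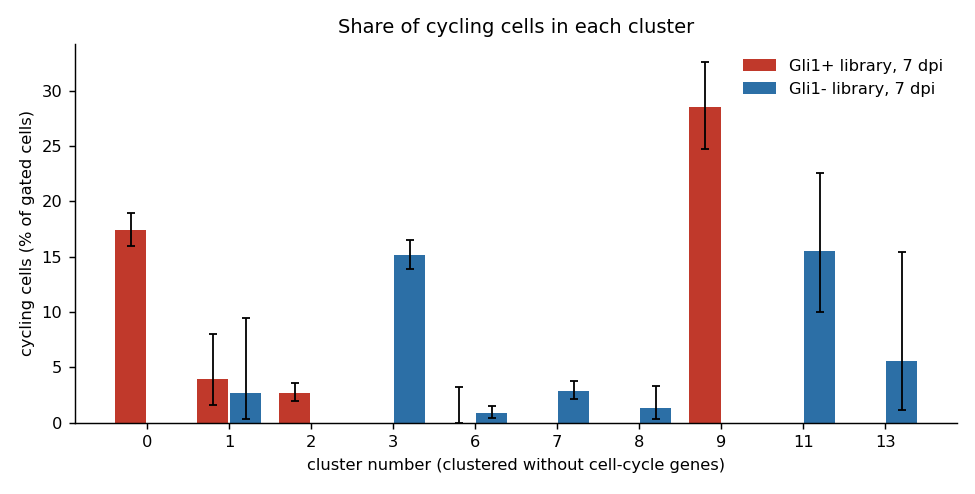
Share of cycling cells (percent, exact binomial 95% intervals) in each cluster with at least 50 gated cells of a library, clustered without cell-cycle genes. Clusters 0 (Gli1+) and 3 (Gli1-) hold most members at 17.4% and 15.1%, and cluster 9 has the highest bar. Clusters 2, 6, 7 and 8 and the Gli1- bar of cluster 1 lie below 3%. Pi16 is above the level of its library in these except in cluster 6 of the Gli1+ and cluster 1 of the Gli1- library.

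The share of cycling cells was also read by single genes in place of clusters. For this the gated cells with at least 5000 UMIs were thinned to that depth and called cycling at 2 or more UMIs of the 4 genes, which were 596 of 4572 Gli1+ cells (13%) and 463 of 5748 Gli1- cells (8.05%). Of Gli1+ cells with a Pi16 UMI 6.82% (104 of 1526) were cycling and of those without one 16.2%. In the Gli1- library these were 4.79% (108 of 2255) and 10.2%. For Igf1 the shares with and without a UMI were 10.2% and 24.9% (Gli1+) and 6.54% and 19.6% (Gli1-), and for Klf4 they were 10.4% and 23.1%, and 5.71% and 18.1%.

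Crabp1 ran the other way. Of cells with a Crabp1 UMI 17.5% (241 of 1378) of Gli1+ and 20.5% (128 of 623) of Gli1- cells were cycling, against 11.1% and 6.54% of those without. Acta2 (15.4% and 9.73% in Gli1+, 11% and 4.84% in Gli1- cells) and Spp1 (18% and 11.2%, 13.7% and 6.21%) had the same direction. So had Tnn (14.3% and 11.8%, 10.8% and 6.03%) and Lrrc15 (13.9% and 12.5%, 11.3% and 6.84%), with overlapping intervals in Gli1+ cells. Without cluster 9 the Gli1+ shares were 13.6% and 9.48% for Tnn and 13.6% and 10.2% for Lrrc15, and the intervals did not overlap. Postn had 12.8% with and 29.3% (22 of 75, 19.4 to 41.0) without a UMI in Gli1+ cells, and 8.07% and 7.60% in Gli1- cells. Without cluster 9 the Gli1+ shares were 11.5% (10.6 to 12.6) and 16.0% (8 of 50, 7.17 to 29.1), with overlapping intervals. A UMI is weak evidence of expression here, since at this depth endothelial-gated cells held one of Acta2 in 42.9% (Gli1+) and 49.6% (Gli1-), of Spp1 in 11.9% and 15.7%, and of Pi16 in 14.3% and 15.7%. Only those with at least 5000 UMIs entered these shares, so the Gli1+ values rest on fewer than 82 cells. Scx had 11.8% and 13.3% in Gli1+ cells, with overlapping intervals, and 11.6% (9.30 to 14.3) and 7.59% (6.87 to 8.35) in Gli1- cells. Runx2 had 13.7% and 12.7% in Gli1+ cells (13.3% and 10.8% without cluster 9) and 9.87% (8.43 to 11.5) and 7.38% (6.61 to 8.21) in Gli1- cells. The shares for Sox9 were 11.9% and 13.4% (Gli1+), then 8.14% and 8.03% (Gli1-). Genes that share a cell also share its cluster, so these shares are not independent of each other or of those by cluster. Several of these genes were named for their ratios of cycling over matched cells. A share by gene reads the same difference the other way, so its direction was largely set in advance and is no separate support.

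**Figure D5:**
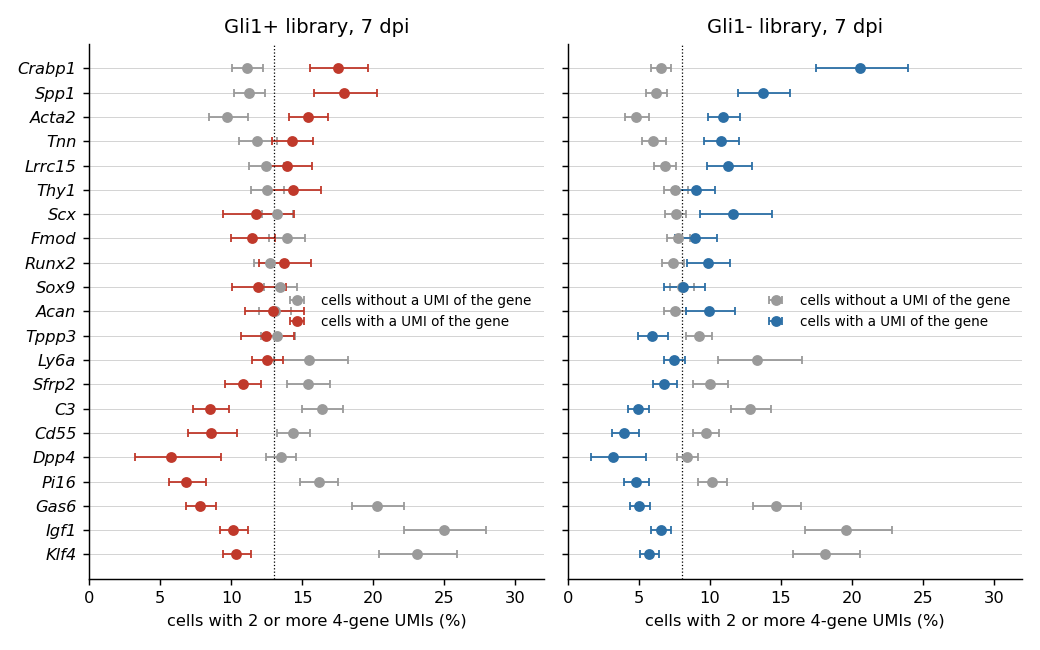
Share of cycling cells (percent, exact binomial 95% intervals) among gated cells with and without a UMI of each gene, after thinning to 5000 UMIs, with a dotted line at the share over all cells. Cells with Crabp1, Spp1 or Acta2 lie above, and cells with Pi16, Dpp4, Cd55, C3, Igf1, Gas6 or Klf4 below, those without, in both libraries.

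Members differed among themselves in the phase of the cycle. When each was assigned to the phase list that held the larger part of its UMIs relative to all members, 45.4% (308 of 679) of Gli1+ and 39.9% (211 of 529) of Gli1- members leaned to S phase, although this share depends on how the lists are scaled and was 17.7% and 18.5% from raw UMIs. S-leaning members were deeper (medians of 20284.5 against 16085 UMIs in Gli1+ and 24279 against 17715.5 UMIs in Gli1- cells). The lists fixed the direction for their own genes, such as Pcna, the sliding clamp of the polymerases, at 151 and 42.0 CPM in S- and G2/M-leaning Gli1+ members. Ccnb1, which was in neither list, stood at 23.3 and 111 CPM in Gli1+ and at 22.6 and 117 CPM in Gli1- members. Ccnd1 (cyclin D1), also in neither list, was at 57.4 and 32.2 CPM in Gli1+ members and at 35.5 and 29.1 CPM in Gli1- members, where the interval spanned 0. Crabp1 was at 340 and 243 CPM in Gli1+ and at 185 and 193 CPM in Gli1- members, with an interval of the log2 ratio from 0.39 to 0.58 and from -0.18 to 0.06, and the difference between the libraries was not tested. Acta2 was at 1018 and 951 CPM and at 1072 and 1041 CPM, close to equal in both phases.

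Cycling Gli1+ and Gli1- cells were then set side by side over all members. Of 12594 genes, 488 (3.87%) were at least 2-fold higher and 114 (0.905%) at least 2-fold lower in the Gli1+ members. Without cluster 9 these were 171 (1.40%) and 97 (0.797%) of 12177. The genes with the highest ratios were Krt1, Lypd3, Zfp750, Dapl1, Fcgbp and Clca3a2, which are epidermal or other epithelial genes, and the summed epidermal markers moved with them. Among those with the lowest were Hba-a1, Hba-a2, Hbb-bs, Hbb-bt and Cxcl13, which are hemoglobins and a chemokine. Their differences may be read only as differences between 2 libraries, and the part of other cells in them was not tested.

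Crabp1 was higher in Gli1+ members, at 291 against 189 CPM, a log2 ratio of 0.62 (0.55 to 0.70), or 0.81 (0.73 to 0.89) without cluster 9. The matched cells differed in the same direction (182 against 61.9 CPM), as did the share of endothelial-gated cells with a Crabp1 UMI (17.1% and 4.06%), so the difference was not particular to cycling cells. Cenpf (119 and 132 CPM), Hmmr (76.9 and 89.0 CPM), Scx (49.1 and 49.4 CPM), Runx2 (98.0 and 106 CPM) and Gnas (1003 and 987 CPM) differed by far less than 2-fold between the Gli1+ and the Gli1- members. Sfrp2 was lower in Gli1+ members (206 against 318 CPM). Rgs5, the defining pericyte gene, was at 11.9 CPM in Gli1+ and 112 CPM in Gli1- members, a log2 ratio of -3.24.

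Cycling cells at 21 dpi, chosen by the same rule, were few (153 Gli1+ and 120 Gli1- cells), and their values are given beside those of 7 dpi with no test. Cenpf stood at 166 (Gli1+) and 185 CPM (Gli1-) at 21 dpi against 119 and 132 CPM at 7 dpi, Stmn1 at 535 and 544 CPM against 482 and 420 CPM, and H2az1 at 1781 and 1909 CPM against 1476 and 1637 CPM. Levels of cell-cycle genes are in large part set by the rule at both times. Crabp1 stood at 76.0 and 70.6 CPM at 21 dpi against 291 and 189 CPM at 7 dpi, Acta2 at 496 and 562 CPM against 984 and 1056 CPM, and Postn at 1365 and 1367 CPM against 2315 and 2566 CPM. Ptn stood at 131 and 128 CPM at 21 dpi against 374 and 431 CPM at 7 dpi.

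Some named genes had higher values at 21 dpi, each in single libraries of few members. Spp1 stood at 883 and 1494 CPM at 21 dpi against 295 and 408 CPM at 7 dpi. Col2a1 stood at 272 and 2674 CPM against 25.4 and 67.0 CPM, and Fmod (fibromodulin) at 275 and 436 CPM against 130 and 102 CPM. Pi16 stood at 170 and 138 CPM at 21 dpi against 65.4 and 75.2 CPM at 7 dpi, whereas Runx2 was at 61.9 and 97.1 CPM against 98.0 and 106 CPM. Cycling cells of 7 dpi thus had the higher values of Crabp1, Acta2, Postn and Ptn, and those of 21 dpi the higher values of Col2a1, Spp1, Fmod and Pi16, in both fractions. Cells of 21 dpi outside the rule are not given beside them, so whether these differences are particular to cycling cells was not tested.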

How the data were processed

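All 6 libraries (uninjured, 7 and 21 dpi, each Gli1+ and Gli1-) were analysed. The authors deposited whole UMI counts per gene and barcode for 33696 genes, aligned to mm10 with STAR in Cell Ranger 3.1.0 per the labels, whereas the file headers name Cell Ranger 9.0.0. The 2 libraries of 7 dpi held 14098 and 14972 barcodes, of which 10064 and 10899 passed the filters. Members and gene lists were chosen with earlier results of these data known. Counts were summed over cycling and over UMI-matched cells and given as CPM with exact Poisson intervals, and ratios of genes with at least 50 UMIs over both sets with exact binomial intervals, and called at 2-fold (log2 ratio of 1). Shares said to be at 5000 UMIs are from thinned cells, and all others are not thinned. Gated cells were clustered (2000 variable genes, 30 components, 20 neighbours, Leiden resolution 0.5) without 488 cell-cycle genes, and doublet scores (Scrublet) served as an alternative only. Named genes were the fixed genes, up to 6 per list with the largest ratios, the 12 highest and 12 lowest outside the cell cycle, and the 6 highest and 6 lowest between fractions, of which 1 is not reported here. Cluster leaders, the genes with printed promoters and those with opposite directions in the 2 libraries were named after their values were seen. The ratios and their intervals were tested on counts simulated with counting error only, without spread between cells. Matching and thinning were checked on the real cells, and clustering, doublet scores, the phase split and the promoter search were not tested. Python 3.11.15, scanpy 1.11.5, leidenalg 0.10.2, scipy 1.17.1 and, for TMM scaling, edgeR 4.0.16 were used. Promoters came from RefSeq (GRCm38.p6, the same major build as mm10).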

Additional observations from a re-analysis of the deposited data

Results flagged for a closer look

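Of 11649 genes compared in both libraries, 6 were at least 2-fold different between cycling and matched cells in opposite directions in the Gli1+ and the Gli1- library, and for each of them the difference was not tested. In all 6, a single cell held over 20% of the UMIs in at least 1 of the libraries.

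The hemoglobin genes, which belong to red blood cells, made up 4 of them. Hbb-bt had a log2 ratio of cycling over matched cells of -3.37 in the Gli1+ and 1.19 in the Gli1- library, and 84.2% and 16.4% of its UMIs were in 1 cell. Hbb-bs had log2 ratios of -3.18 and 1.48, with 75.9% and 15.7% of its UMIs in 1 cell. Hba-a1 had log2 ratios of -3.16 and 1.5, and Hba-a2 of -2.96 and 1.88. The opposite direction did not hold under all alternatives. In Gli1- cells with Pdgfra of at least 2 the ratio was -0.50 for Hbb-bt, -0.33 for Hba-a1 and -0.13 for Hba-a2, and without Krt5 or Krt14 UMIs it was -0.74 for Hbb-bt and -0.38 for Hbb-bs. The intervals of these ratios spanned 0. The 5 red blood cell markers summed to 7.17 CPM in cycling and 59.7 CPM in matched Gli1+ cells and to 115 and 40.4 CPM in Gli1- cells.

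Dnah12, an axonemal dynein, had log2 ratios of 3.1 (Gli1+) and -1.54 (Gli1-), and 26.7% and 70.1% of its UMIs were in 1 cell. Ednrb, an endothelin receptor, had log2 ratios of -1.65 and 1.04, which were -0.62 and 0.10 with pairs drawn within clusters.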

How the results depend on the processing

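No paired analysis was possible because, at 7 dpi, each fraction is 1 library. A fit with the time points as pairs of fractions was not run. The share of Gli1+ cells was 21.9% at 2 or more UMIs of the 4 genes, 10.3% at 6 or more, 5.73% at 5000 UMIs, 14.1% with Pdgfra of at least 2, 11.8% without the mitochondrial filter, 11.8% without doublets, 11.2% without cluster 9 and 0% among the 15 cells with no Krt5 or Krt14 UMI, where 2-fold counts could not be run. For Gli1- cells it was 13.6%, 6.44% and 3.47% under the first 3 of these and 7.09% without Krt5 or Krt14 UMIs. With no filter on low counts, 2366 genes were higher and 2700 lower (Gli1+), 2519 and 2675 (Gli1-), 612 and 648 in both, and 2625 and 2421 between Gli1+ and Gli1- members. At 2 or more UMIs of the 4 genes, 127 (Gli1+), 98 (Gli1-) and 16 (both) were lower. Unmatched, 683, 975 and 474 were lower, and 627 (Gli1-) and 267 (both) higher. Thinned, 75 were higher in both, and within clusters 69 were lower in both. Without cluster 9, 171 were higher in Gli1+ than in Gli1- members. The share in clusters with low Pi16 was 19.7% with 20 components (Gli1+) and 13.1% at resolution 0.3 and 1.0 (Gli1-), and the S-leaning share from raw UMIs was 17.7% and 18.5%. Cluster 9, within-cluster pairs and genes held by 1 cell were alternatives chosen after seeing the data. The cause was not tested. Of 2808 values of single genes under the alternatives, 2144 moved by less than their counting interval, 652 moved by more and 12, all of them 2-fold different before, reversed. With smaller differences counted, 73 changed sign, among them Col2a1 (Gli1-) and Tppp3 within clusters. Without cluster 9 the log2 ratio of Krt5 was -0.14 (Gli1+) and -0.21 (Gli1-). Within clusters it was -0.072 for Krt5, 0.0023 for Krt1 and -0.83 for Krt14 (Gli1-), and 0.069 for Cilp2 (Gli1+). In Gli1- cells with Pdgfra of at least 2 it was -0.50 for Hbb-bt, -0.33 for Hba-a1 and -0.13 for Hba-a2, and without Krt5 or Krt14 UMIs -0.74 for Hbb-bt, -0.38 for Hbb-bs and -0.0026 for Hba-a2. Depth limits genes under 50 UMIs, which were not compared.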

Other observations

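Housekeeping groups that the text above has not described were mostly slightly higher in cycling than in matched cells. Of 38 proteasome genes the interval of the log2 ratio lay above 0 for 36 in each library, against 26.5% (Gli1+) and 29.5% (Gli1-) of genes outside the cell cycle, with medians of 0.43 (Gli1+) and 0.49 (Gli1-). Psmd14, the deubiquitinase of the proteasome lid, was at 131 and 86.6 CPM in cycling and matched Gli1+ cells and at 128 and 84.1 CPM in Gli1- cells. Of the subunits of oxidative phosphorylation, the interval lay above 0 for 67 of 85 (Gli1+) and 69 of 86 (Gli1-), and Cox5a, a subunit of cytochrome c oxidase, was at 393 and 270 CPM and at 370 and 243 CPM. Of 81 ribosomal protein genes the interval lay above 0 for 73 (Gli1+) and 62 (Gli1-), with medians of 0.13 and 0.09, close to the medians over all genes compared (0.06 and 0.08).

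The secretory path was split. Hsp90b1, a chaperone of the endoplasmic reticulum, was at 773 and 581 CPM in cycling and matched Gli1+ cells and at 820 and 639 CPM in Gli1- cells. Plod2, which hydroxylates collagen lysines for cross-linking, stood at 309 against 534 CPM in Gli1+ and 399 against 595 CPM in Gli1- cells. Over 31 genes of collagen folding and secretion the medians were 0.03 and 0.07. Of 15 interferon-stimulated genes the interval lay below 0 for 9 (Gli1+) and 7 (Gli1-), against 20.6% and 19.2% of genes outside the cell cycle, with Ifit1 at 16.0 and 27.5 CPM and at 21.8 and 36.1 CPM. The summed level of all 16 genes of that list in the files was nevertheless higher in cycling cells, at 2502 against 2442 CPM (Gli1+) and 2816 against 2654 CPM (Gli1-), and the median of -0.22 (Gli1-) was 0.03 with pairs drawn within clusters.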
